A study of Mus musculus with 28 samples.

Results

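Of 34839 genes measured in mouse testis, 11 were at 5 or more in each of 4 libraries from testes that lack a meiotic gene and under 0.5 in the adult wild-type library. They are Traj27, Cd83, Masp1, Cldn4, Ildr2, Wnt4, Wfdc18, Nt5c1a, Sco2, Rhox2d and Rhox2e. Values are the authors' TPM, a share of all transcripts that is corrected for their length, with the columns rescaled. The genes were chosen on exactly these values, with predicted genes, Rik clones and pseudogene names left out, so their difference from wild type is described below and not tested. In all, 10449 genes reached 5 in the 4 knockout libraries, and 13 of them (0.124%) were under 0.5 in wild type. Rpl36-ps8 and Gm12191 were the 2 left out by name. The opposite pattern, 5 or more in wild type and under 0.5 in every knockout library, was found for 795 genes.

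The libraries were made from whole testis of C57BL/6 mice. The groups were Prdm9 KO (2 libraries), Hop2 KO (2 libraries) and wild type, labelled adult (1 library). The labels give neither the ages of the knockout mice nor the design of either allele, so age and genotype cannot be told apart. Nothing in them ties a library to an animal of its own, so a p-value here speaks only of the spread among libraries, and that spread may be technical. A further library mapped single-stranded DNA at meiotic breaks (SSDS) in testis of 1 C57BL/6 genotype, Prdm9 (K/K), in which PRDM9 lacks its KRAB domain. The series holds 28 samples, of which these 6 were used and 22 were not analysed here.

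PRDM9 is the histone methyltransferase that marks the sites of meiotic recombination, and HOP2, whose gene has the approved symbol Psmc3ip, assists strand exchange by DMC1. Loss of either gene stops male germ cells in meiotic prophase, so spermatids and sperm are not made and the somatic cells of the testis take up a larger part of the tissue. In bulk tissue a lower value can come from fewer cells of a type or from less RNA per cell, and these cannot be told apart.

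The adult library held spermatid RNA at a summed level of 132000 over 13 marker genes, against 9.54 to 44.8 in the knockouts. Sertoli markers summed to 10706 to 15362 in the knockouts and 2663 in wild type, and Leydig markers other than Insl3 to 5383 to 6481 and 1177. Psmc3ip was lowest in the libraries labelled Hop2 KO, at 3.51 and 5.06 against 22.8 to 197 elsewhere. Prdm9 was lowest in the libraries labelled Prdm9 KO, at 4.73 and 5.93 against 10.7 and 15.0 in Hop2 KO, but little below the 6.20 of wild type. The columns of the knockouts summed to 825459 to 953598 and that of wild type to 1622660, although TPM as usually defined sums to 1000000. Read depth is unknown.

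The start regions of these genes fall into unlike kinds, and 5 are shown because they carry that contrast. Each window runs from 250 bases before to 50 after the annotated start, from RefSeq on GRCm38.p6, 5′ to 3′ along the gene. That start can lie inside the gene span given below. For Nt5c1a it is 123201485 and the span begins at 123201230, so the whole window lies within the span. For Ildr2 it is 166254139 against 166254060, and for Rhox2e 37530468 against 37530322. Windows were found for 8 of the 11 genes, and none was matched for Cd83, Masp1 and Traj27. Capitals mark 1 motif per gene, searched on both strands: GGGCGG, the core of the GC box, in Ildr2 and Nt5c1a, TATAAA, the TATA box, in Wfdc18, and CCAAT, read as ATTGG on the other strand, in the Rhox2 genes.
Ildr2, chr1:166253889-166254188, plus strand: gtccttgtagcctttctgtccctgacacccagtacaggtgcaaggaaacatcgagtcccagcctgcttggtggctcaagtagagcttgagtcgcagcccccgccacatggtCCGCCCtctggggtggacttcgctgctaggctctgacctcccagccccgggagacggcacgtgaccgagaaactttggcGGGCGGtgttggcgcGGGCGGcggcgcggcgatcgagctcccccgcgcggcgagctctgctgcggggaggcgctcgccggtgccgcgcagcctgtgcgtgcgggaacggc
Nt5c1a, chr4:123201235-123201534, plus strand: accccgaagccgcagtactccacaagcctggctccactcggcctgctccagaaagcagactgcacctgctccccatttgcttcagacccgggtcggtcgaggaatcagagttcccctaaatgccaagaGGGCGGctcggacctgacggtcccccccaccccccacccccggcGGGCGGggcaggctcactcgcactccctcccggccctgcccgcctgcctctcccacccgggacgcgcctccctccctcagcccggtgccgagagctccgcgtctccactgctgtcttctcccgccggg
Wfdc18, chr11:83708754-83709053, plus strand: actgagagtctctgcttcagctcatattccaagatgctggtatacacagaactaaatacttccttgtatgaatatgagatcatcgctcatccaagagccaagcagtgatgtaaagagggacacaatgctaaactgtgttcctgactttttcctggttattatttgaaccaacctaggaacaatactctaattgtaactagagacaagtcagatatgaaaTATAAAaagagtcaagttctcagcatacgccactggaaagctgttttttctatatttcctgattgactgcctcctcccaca
Rhox2d, chrX:37493160-37493459, plus strand: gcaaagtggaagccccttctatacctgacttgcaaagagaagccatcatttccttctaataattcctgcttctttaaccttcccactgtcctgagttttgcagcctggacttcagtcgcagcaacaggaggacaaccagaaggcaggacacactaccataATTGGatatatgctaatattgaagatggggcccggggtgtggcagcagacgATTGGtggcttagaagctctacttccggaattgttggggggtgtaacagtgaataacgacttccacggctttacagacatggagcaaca
Rhox2e, chrX:37530218-37530517, plus strand: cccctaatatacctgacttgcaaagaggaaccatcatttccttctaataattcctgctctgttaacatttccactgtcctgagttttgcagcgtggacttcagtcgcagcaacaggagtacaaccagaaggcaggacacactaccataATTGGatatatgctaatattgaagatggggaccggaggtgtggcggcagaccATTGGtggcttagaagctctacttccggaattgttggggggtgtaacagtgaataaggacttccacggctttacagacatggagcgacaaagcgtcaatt

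GGGCGG stood in 5 of the 8 windows (Ildr2, Nt5c1a, Wnt4, Sco2 and Cldn4) and in 35.7% of all 32851 windows in the table. CCAAT stood in 2 of 8, both Rhox2 genes, against 37.4% of all windows, and TATAAA in 1 of 8 (Wfdc18) against 13.6%. The number of CpG pairs ran from 51 in Wnt4, 32 in Ildr2, 31 in Sco2 and 24 in Nt5c1a down to 9 in Cldn4, 8 in Rhox2e, 6 in Rhox2d and 2 in Wfdc18. The median over all windows was 7. So 4 windows held 24 or more and 4 held 9 or fewer. A match is a description of the letters, not of a bound factor. The Rhox2d and Rhox2e windows were identical at 272 of 288 aligned bases (94.4%), and all 21 pairs among the 7 Rhox2 copies with a window lay between 94% and 100%.

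**Figure D1:**
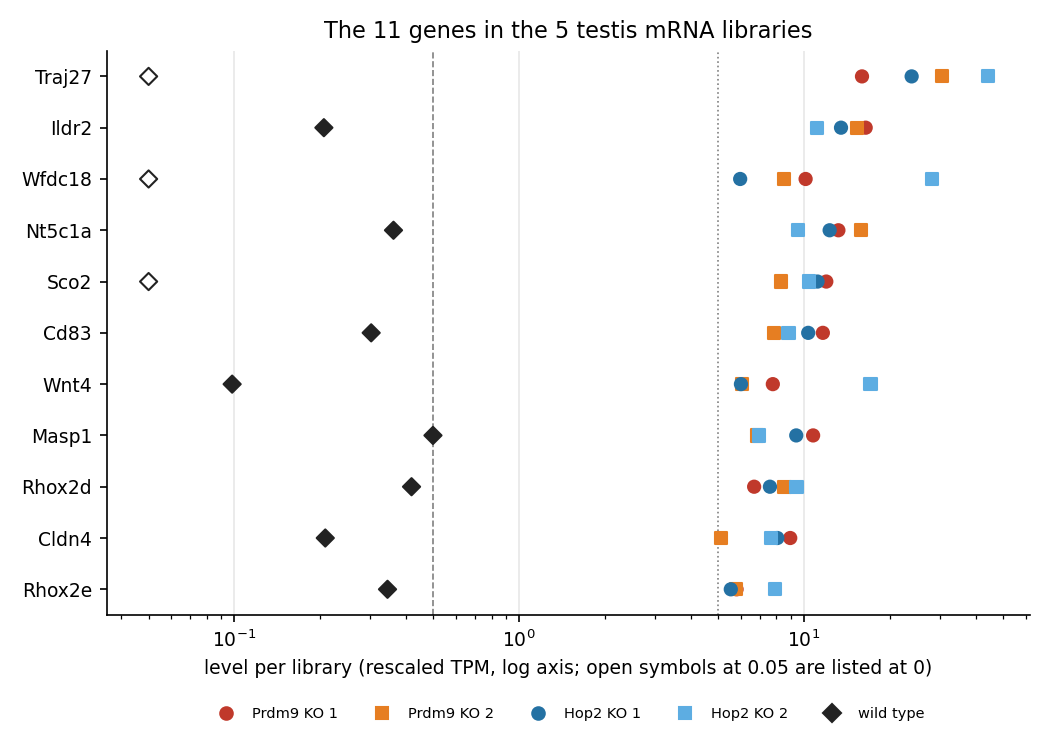
Level of each of the 11 genes (rows) in each of 5 testis mRNA libraries, in rescaled TPM on a log axis. Colours and shapes are libraries, the dashed and dotted lines stand at 0.5 and 5, and open symbols at 0.05 are values listed at 0. The 4 knockout libraries lie at 5.11 or above and wild type at 0.498 or below, as the choice of genes requires.

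The label of the set, genes seen only in arrested testes, holds in part. Wild type was listed at 0 for 3 genes (Traj27, Wfdc18 and Sco2), and the other 8 had low values there, from 0.0982 for Wnt4 to 0.498 for Masp1. Knockout means ran from 6.26 for Rhox2e to 28.6 for Traj27, and the difference between the mean of the knockouts and wild type on log2(value + 1) from 2.42 to 4.80, with a median of 3.10. The plot of levels by library shows the gap between the groups, which the choice of genes fixes, and the spread within the knockouts, which it fixes only from below.

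The set ends close to its thresholds. Masp1 was just inside in wild type at 0.498, whereas Serpina3i at 0.501, Shisa4 at 0.510 and Rrad at 0.516 were just outside. In the lowest knockout library Cldn4 was just inside at 5.11, and Rhox2f at 4.74, Ssc4d at 4.64 and AC163041.1 at 4.56 were just outside. With every column rescaled to 1000000 the same thresholds took in 41 genes, among them all 11.

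**Figure D2:**
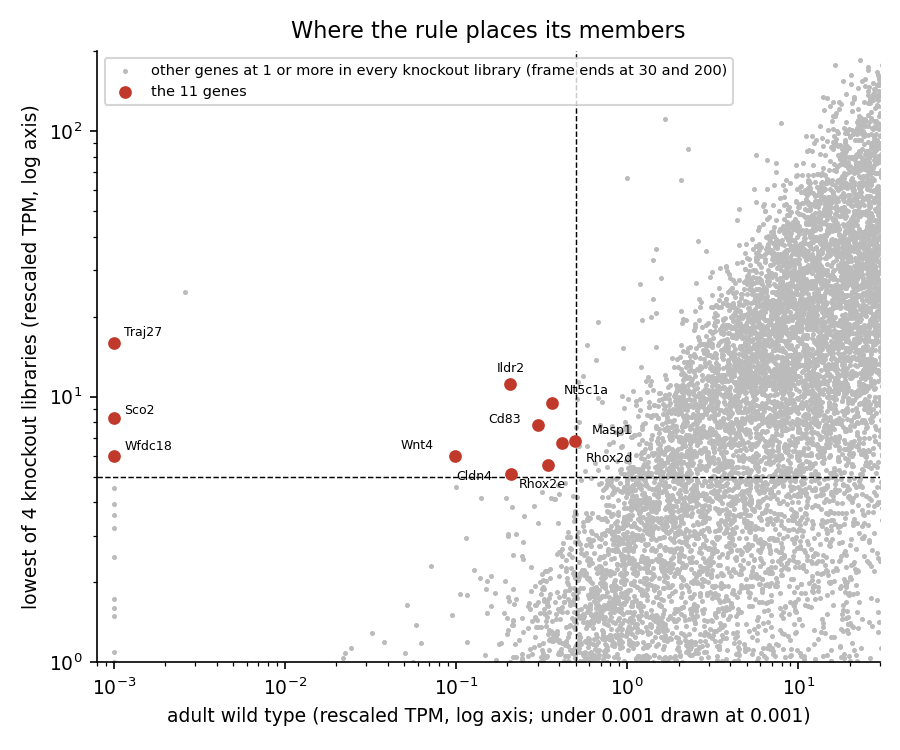
Wild-type level (x axis) against the lowest of the 4 knockout libraries (y axis) for single genes, both in rescaled TPM on log axes. Dashed lines mark the thresholds of 0.5 and 5, red points are the 11 genes, grey points are other genes, and the frame stops at 30 and 200. Masp1 at 0.498 in wild type and Cldn4 at 5.11 in its lowest knockout library touch the lines, and Traj27, Sco2 and Wfdc18 are drawn at 0.001 because wild type is listed at 0.

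Of the immune genes, Traj27 had the highest knockout mean of the set. It is a joining (J) segment of the T cell receptor alpha locus, ENSMUSG00000076902, only 59 bases long at chr14:54192303-54192361 within Tcra, and joins to a variable segment when the receptor gene is rearranged in T cells. It was at 15.97 and 30.5 in the Prdm9 KO pair and 23.9 and 44.2 in the Hop2 KO pair, and was listed at 0 in the adult wild type. In each genotype library 1 was the lower and library 2 the higher, and the groups overlapped. A level per length for so short a segment rests on few bases, so its height against other genes is uncertain.

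Traj27 stood apart from the 60 segments of its kind in the table, of which 43 were listed at 0 in all knockout libraries and 41 in all 5 libraries. The next highest, Traj22, was at 3.21, 3.82, 3.52 and 13.2 in the knockouts and listed at 0 in wild type. The constant region Trac, which every alpha chain uses, was at 13.8 to 15.3 in the knockouts and 0.657 in wild type. Its knockout values were nearly level, unlike those of Traj27. Genes outside the set were tested between knockouts and wild type in a fit of all 5 libraries, which lends the lone wild-type library the spread of the knockouts (limma, Benjamini-Hochberg adjusted p under 0.05). Over all 16261 genes tested, 36.3% were higher in the knockouts and 40.5% were lower, and the median log2 difference was -0.065. Of 18 lymphocyte markers, 11 were under 1 in every knockout library and 6 could be tested. Cd3e, Cd4, Cd79b and Ptprc were higher in the knockouts, Cd3d was lower and Lck did not pass, with a median log2 difference of 0.84. The list summed to 18.0 to 19.2 in the knockouts and 60.5 in wild type, of which Cd3d alone made 48.6. Without Cd3d, left out after its values were seen, the sums were 17.7 to 18.9 and 11.97. The part of lymphocytes in the Traj27 values was not tested.

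Cd83, a surface protein of mature dendritic cells and other activated immune cells (ENSMUSG00000015396, chr13:43785112-43803133), was at 11.6 and 7.84 in the Prdm9 KO pair and 10.3 and 8.82 in the Hop2 KO pair, against 0.302 in wild type. The Hop2 KO values lay between those of Prdm9 KO. Its 2 transcripts split unevenly, the leading one taking 62.9% to 81.3% of the gene's level in the knockouts, and the other was listed at 0 in wild type. Cd86 and Cd80, the co-stimulatory ligands of antigen-presenting cells, stayed lower, at 1.17 to 2.22 and 0.235 to 0.418 in the knockouts and 0.630 and 0.0389 in wild type. Of 18 macrophage markers, 16 were higher in the knockouts than in wild type and 2 were lower (limma, adjusted p under 0.05), with a median log2 difference of 2.31. They summed to 820.4 to 1351 in the knockouts and 945.3 in wild type, and without Aif1, which was at 761.4 in wild type and was left out after its values were seen, to 810.6 to 1338 and 184. The part of macrophages in the Cd83 values was not tested.

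Masp1 encodes a serine protease of the lectin pathway of complement (ENSMUSG00000022887, chr16:23451785-23521240). It was at 10.8 and 6.83 in the Prdm9 KO pair and 9.39 and 6.95 in the Hop2 KO pair, against 0.498 in wild type. In both genotypes library 2 was near 7 and library 1 was higher. Masp2, another protease of that pathway, was at 0.102 to 0.282 in the knockouts and 0.260 in wild type. The Masp1 span shares 1022 bases (1.47%) with Rtp4, which was at 2.70 to 3.95 in the knockouts and 0.466 in wild type.

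Complement genes were mostly higher in the knockouts in the fit of all 5 libraries. Of 17 tested besides Masp1, 11 were higher, 1 was lower (0 with either other scaling, 2 without Hop2 KO 1) and 5 did not pass, with a median of 2.10. C3, the central component, was at 38.6 to 56.2 against 2.61 in wild type, a log2 difference of 3.79 ± 0.23 (SE, limma adjusted p = 0.000700). C1qa, a chain of the recognition molecule C1q made by macrophages, was at 92.0 to 189 against 12.8 (3.31 ± 0.37, adjusted p = 0.00316). Serping1, the inhibitor of the C1 and MASP proteases, was at 184 to 256 against 22.9 (3.13 ± 0.22, adjusted p = 0.000986). All 3 had 2.61 or more in wild type and so fell outside the choice that took Masp1.

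Of 9 other T cell receptor segments tested in the same fit, 3 were higher in the knockouts, 2 were lower and 4 did not pass, with a median of 1.20. Trac was higher by 3.24 ± 0.14 (SE, limma adjusted p = 0.000325) and Traj22 by 2.59 ± 0.70 (adjusted p = 0.0341, but 0.0885 without Prdm9 KO 1 and 0.0939 without Prdm9 KO 2). Trbj2-1, a joining segment of the beta chain, went the other way at 8.37 in wild type, 0 in both Prdm9 KO libraries and 2.30 and 2.56 in Hop2 KO (-2.34 ± 0.076, adjusted p = 0.000146). The count of higher segments was 5 without Hop2 KO 1 or without Hop2 KO 2, and 1 with a pseudocount of 5, so it is not stable.

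Cldn4 and Ildr2 encode proteins of cell junctions. Cldn4, a claudin of epithelial tight junctions (ENSMUSG00000047501, chr5:134945123-134946934), was at 8.94 and 5.11 in the Prdm9 KO pair and 8.06 and 7.68 in the Hop2 KO pair, against 0.209 in wild type. Prdm9 KO spanned both Hop2 KO values. Among 33 claudins in the table, Cldn11, the claudin of the Sertoli cell barrier, was the highest at 599 to 807 in the knockouts and 126 in wild type. Cldn3, another barrier claudin, went the other way, at 25.8, 9.53, 53.9 and 12.5 in the knockouts and 240.2 in wild type.

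Among 6 other epithelial genes tested, 2 were higher in the knockouts, 3 were lower and 1 did not pass, with a median of -1.88. Muc1, a membrane mucin, was at 1.03 to 2.15 against 36.6 in wild type (-3.84 ± 0.28 SE, limma adjusted p = 0.00110). Krt8, a keratin of simple epithelia, was at 0.316 to 0.805 against 17.8 (-3.57 ± 0.16, adjusted p = 0.000324). Cldn3 differed by -3.49 ± 1.02 on that scale (adjusted p = 0.0414), but its adjusted p was 0.0641, 0.0908 and 0.0512 without Prdm9 KO 1, Prdm9 KO 2 and Hop2 KO 2. The 2 that were higher, as was Cldn4, were Cdh1, the epithelial cadherin, at 1.22 to 1.56 against 0.596 (0.57 ± 0.063, adjusted p = 0.00311), and Cldn7, at 12.7 to 21.3 against 2.57 (2.23 ± 0.32, adjusted p = 0.00626). Epcam did not pass. The 13 genes of this list, Cldn4 included, summed to 65.2 to 97.7 in the knockouts and 330.7 in wild type, and without Cldn3, left out after its values were seen, to 43.8 to 69.0 and 90.5. The whole columns summed to 825459 to 953598 in the knockouts and 1622660 in wild type. The order of the sums without Cldn3 therefore depends on the scaling. All 8 epididymis markers were under 1 in every knockout library, and they summed to 0.750 to 1.04 there and 10.9 in wild type. Without Defb21, left out after its values were seen, the sums were 0.653 to 0.860 and 5.45, of which Rnase10 made 4.12. Lcn5, Lcn8, Lcn9 and Spint4 were listed at 0 in wild type, so the list did not move together. The part of epithelial cells in the Cldn4 values was not tested.

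Ildr2 is an angulin, a membrane protein placed where 3 epithelial cells meet (ENSMUSG00000040612, chr1:166254060-166316832). It was at 16.5 and 15.3 in the Prdm9 KO pair and 13.5 and 11.1 in the Hop2 KO pair, against 0.206 in wild type. Both Prdm9 KO values lay above both Hop2 KO values. Of its 7 transcripts the leading one made 62.1%, 68.4%, 65.1% and 88.4% of the gene in the 4 knockout libraries and the second 33.5%, 24.7%, 31.1% and 9.87%. The Hop2 KO 2 library, lowest in the gene, was also the one with the least of the second transcript, at 1.10 against 3.79 to 5.52. Of the other angulins, Lsr was at 283 to 366 in the knockouts and 42.3 in wild type, and Ildr1 at 0.192 to 0.276 and 0.0598.

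Wnt4 and Wfdc18 encode secreted proteins, and they varied most among the knockout libraries together with Traj27. Wnt4, a signalling ligand needed for female gonad development (ENSMUSG00000036856, chr4:137277635-137299501), was at 7.77 and 6.05 in the Prdm9 KO pair and 6.00 and 17.1 in the Hop2 KO pair, against 0.0982 in wild type. The Hop2 KO 2 library alone was high, and the other 3 lay between 6.00 and 7.77. Wnt6 was at 184 to 214 in the knockouts and 39.2 in wild type and Wnt5a at 7.76 to 10.9 and 2.09, whereas Wnt3 was at 0.572 to 0.690 and 50.9.

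Wfdc18, a small protein of the whey acidic protein family (ENSMUSG00000000983, chr11:83709004-83711360), was at 10.1 and 8.52 in the Prdm9 KO pair and 5.97 and 28.1 in the Hop2 KO pair, and was listed at 0 in the adult wild type. Here too Hop2 KO 2 was far above the rest, and Hop2 KO 1 was the lowest. Wfdc17, of the same family, was at 19.9 to 32.3 in the knockouts and 1.38 in wild type, and Wfdc10 at 550.2 to 744 and 127. Wfdc15a and Wfdc3 were higher in wild type, at 280.1 and 139 against 6.42 to 27.7 and 4.63 to 6.06.

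The coefficient of variation over the 4 knockout libraries was 76.7% for Wfdc18, 57.6% for Wnt4 and 41.7% for Traj27, and 14.7% to 22.6% for the other 8. All 3 of these genes were highest in Hop2 KO 2. That library also had the highest Insl3, a Leydig cell hormone, at 68224 against 21025 to 44712 in the other knockouts. Of the 15 genes of the Leydig list, 5 were highest in Hop2 KO 2 and 3 were lowest there among the knockouts. The sum of the 14 without Insl3 was 6481 in that library against 5383 to 6396. The 13 spermatid markers were each highest in Hop2 KO 2 among the knockouts, with a sum of 44.8 against 9.54 to 14.3. The part of Insl3-rich or germ cells in these values was not tested. Of the 11 genes, 5 were highest in Hop2 KO 2, 5 in Prdm9 KO 1 and 1 in Prdm9 KO 2. The same shares over all genes are not given here. Hop2 KO 2 also had the largest column sum of the knockouts, 953598 against 825459 to 896480.

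Nt5c1a, a cytosolic nucleotidase that turns AMP into adenosine (ENSMUSG00000054958, chr4:123201230-123225339), was at 13.2 and 15.8 in the Prdm9 KO pair and 12.3 and 9.49 in the Hop2 KO pair, against 0.362 in wild type. As for Ildr2, both Prdm9 KO values lay above both Hop2 KO values. Its closest relative, Nt5c1b, had the opposite pattern, at 0.0728 to 0.411 in the knockouts and 1043 in wild type. The other 5 genes of the family, Nt5c1a included, summed to 292 to 382 in the knockouts and 261 in wild type. The 2 AMP nucleotidases were on opposite sides, Nt5c1a in the knockouts and Nt5c1b in the adult testis. The choice of genes fixed the side of Nt5c1a, and its relatives were chosen after values were seen.

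Sco2, a copper chaperone for assembly of cytochrome c oxidase in mitochondria (ENSMUSG00000091780, chr15:89371630-89373891), was at 11.97 and 8.32 in the Prdm9 KO pair and 11.1 and 10.4 in the Hop2 KO pair, and was listed at 0 in the adult wild type. A listed 0 for a gene of general metabolism needs care. Its span lies almost wholly within that of Tymp, thymidine phosphorylase, with 2261 of its 2262 bases shared, and 54.0% of it overlaps Ncaph2, a condensin subunit. Tymp was at 2.61 to 3.21 in the knockouts and 77.5 in wild type, opposite to Sco2, and Ncaph2 at 91.9 to 107 and 56.9. How reads of the shared bases were divided among the 3 genes was not tested, so the wild-type 0 of Sco2 is uncertain. Sco1, its relative elsewhere in the genome, was at 10.3 to 13.1 in the knockouts and 3.95 in wild type.

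Rhox2d and Rhox2e are 2 of 8 near-identical copies of Rhox2 in the reproductive homeobox cluster of the X chromosome, transcription factor genes expressed mainly in gonads and placenta. Rhox2d (ENSMUSG00000095698, chrX:37493410-37497715) was at 6.68 and 8.53 in the Prdm9 KO pair and 7.59 and 9.41 in the Hop2 KO pair, against 0.419 in wild type. Rhox2e (ENSMUSG00000096788, chrX:37530322-37541809) was at 5.79 and 5.76 in the Prdm9 KO pair and 5.53 and 7.93 in the Hop2 KO pair, against 0.345 in wild type. The knockout groups overlapped for both, and for Rhox2d library 2 was the higher in each genotype. Rhox2e has 2 transcripts, and 1 of them made 55.9% to 70.8% of its level in the knockouts but 0.0139% in wild type, where the other took the rest. The wild-type share divides a level of only 0.345 in 1 library, so it is uncertain.

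Reads of such copies can be shared out between them in more than 1 way, so single-copy values are uncertain, and the sum does not depend on that division. All 8 copies together were at 57.4 and 71.9 in the Prdm9 KO pair and 65.5 and 80.6 in the Hop2 KO pair, against 5.78 in wild type, so Rhox2 RNA was present in the adult testis. The knockout libraries were 9.92 to 13.9 times wild type. Rhox2d and Rhox2e made 19.9% to 21.7% of the sum in the knockouts and 13.2% in wild type. The copies left out missed the thresholds narrowly or by their wild-type value: Rhox2a was at 19.6 to 25.9 against 2.12, Rhox2b at 7.31 to 10.9 against 0.897 and Rhox2c at 5.25 to 7.49 against 1.22, whereas Rhox2f, Rhox2g and Rhox2h were under 0.5 in wild type with a lowest knockout library of 4.74, 4.15 and 3.85. The family members were chosen after values were seen, and no test was made on the sum.

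**Figure D3:**
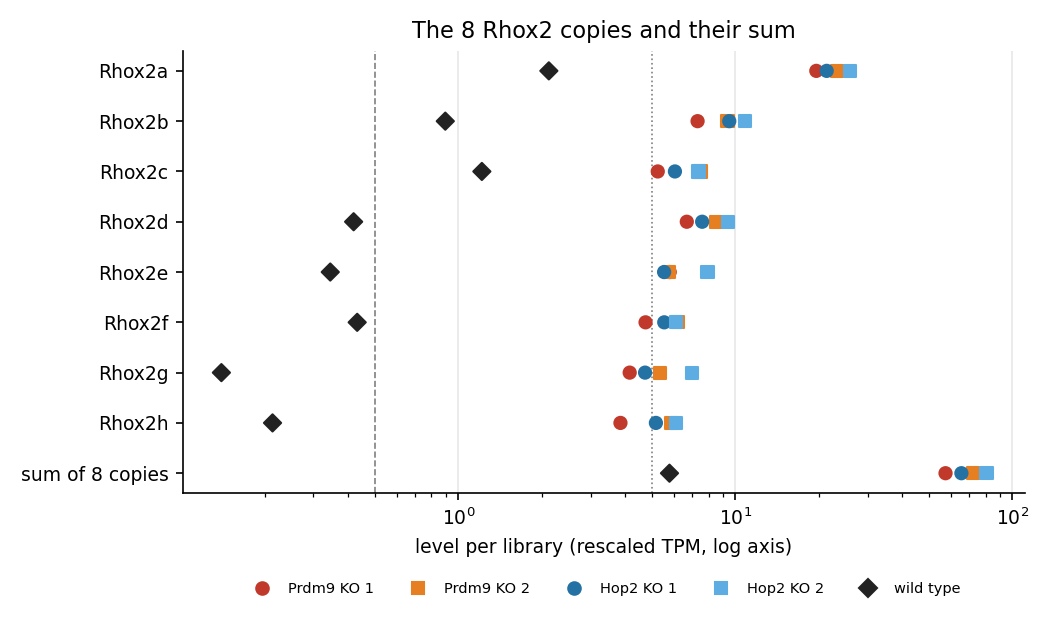
Level of each of the 8 Rhox2 copies and of their sum (rows) in the 5 testis mRNA libraries, in rescaled TPM on a log axis, with lines at 0.5 and 5. All 8 copies show the same separation of knockouts and wild type, and the sum lies at 57.4 to 80.6 in the knockouts and 5.78 in wild type.

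Of 22 other Rhox genes tested, 14 were higher in the knockouts, 2 were lower (6 with a replicate block) and 6 did not pass, with a median of 1.76 (limma). Rhox2a was higher by 2.91 ± 0.19 (SE, adjusted p = 0.000802). Rhox13, a Rhox gene of germ cells, was at 55.4 to 76.5 against 11.1 in wild type (2.47 ± 0.23, adjusted p = 0.00199). Rhox11 was lower, at 0.304 to 0.382 against 6.67 (-2.50 ± 0.057, adjusted p = 5.36e-05), so the cluster did not move as 1 block. The Sertoli list, which holds Rhox5 and Rhox8, had 19 of 20 genes higher and 0 lower, with a median of 2.11, and its part in the Rhox2 values was not tested.

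Prdm9 KO and Hop2 KO were then compared within the 4 knockout libraries, a contrast that the choice of genes did not use except that it asked for 5 or more in each library. The question is whether these genes depend on which meiotic gene is lost. With limma and Benjamini-Hochberg adjustment over 14358 genes, 0 of the 11 passed 0.05, and 0 had an unadjusted p under 0.05. The unadjusted count was 4 without Hop2 KO 1, 2 with a replicate block and 1 without Hop2 KO 2 or with rescaled columns, and 0 under the other alternatives. Over all genes tested 2 passed (0.0139%), and 445 (3.1%) had an unadjusted p under 0.05. Ildr2 was 15.9 ± 0.804 in Prdm9 KO and 12.3 ± 1.66 in Hop2 KO (mean ± SD, n = 2 each). The log2 difference was 0.35 (95% interval -0.03 to 0.73), with an adjusted p of 0.972 (limma; 0.0639 unadjusted). Nt5c1a was 14.5 ± 1.87 and 10.9 ± 1.98 in the same order. Its difference was 0.39 (-0.079 to 0.86), with an adjusted p of 0.972 (limma; 0.0852 unadjusted). For these 2 of 11 genes the groups did not overlap, as for 32.9% of all genes tested.

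For the other 9 genes the groups overlapped. The differences of Masp1, Cd83, Sco2, Rhox2d, Rhox2e and Cldn4 lay between -0.19 and 0.08, and their intervals ran from -0.86 to 0.75 at the widest. Wfdc18, Wnt4 and Traj27 had differences of -0.47, -0.52 and -0.53 with wide intervals, -2.24 to 1.30, -1.74 to 0.71 and -1.61 to 0.54. With intervals of that width, a difference in either direction remains possible. The authors' deposited table, from sleuth and with its groups not named, gave p = 0.0721 for Ildr2 and p = 0.0916 for Nt5c1a, the lowest of the 11, and a q-value of 1 for each of the 11.

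**Figure D4:**
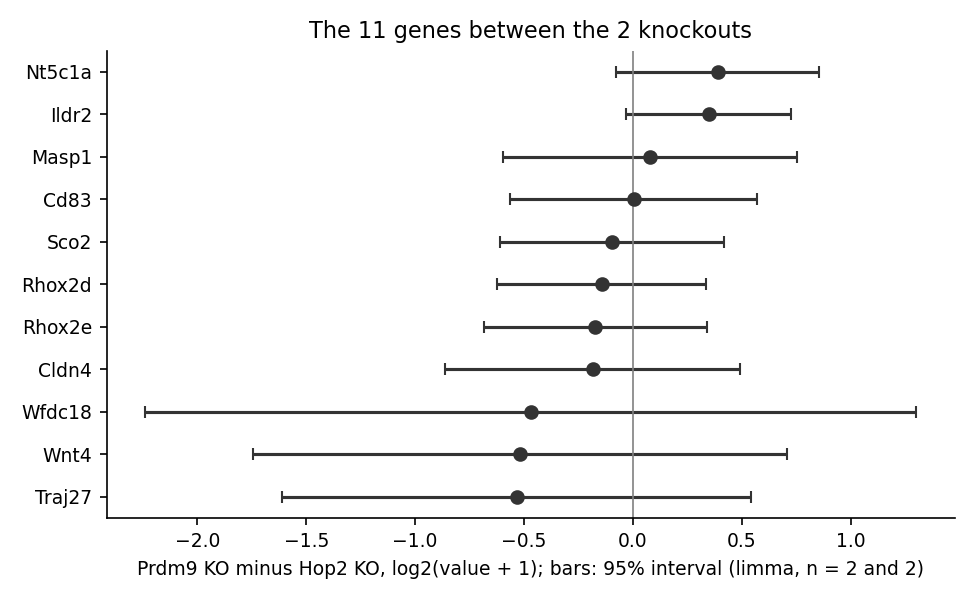
Difference between Prdm9 KO and Hop2 KO for each of the 11 genes (rows) on log2(value + 1), with the 95% interval from limma (n = 2 and 2) as bars. Every interval includes 0, and Nt5c1a and Ildr2 lie farthest to the Prdm9 KO side at 0.39 and 0.35.

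A readout apart from expression was the map of meiotic breaks in Prdm9 (K/K) testis, from 1 library and so without a test. In mice without working PRDM9, breaks are known to form at promoters and other sites with trimethylated histone H3 lysine 4. The authors' list holds 17731 peaks. A peak lay within 1000 bases of the start for 2 of 8 genes with an annotated start (25%), Ildr2 and Nt5c1a, against 7790 of 16675 genes (46.7%) and 5900 of 8071 genes at 5 or more in all knockout libraries (73.1%). These 2 were also the genes higher in both Prdm9 KO libraries than in both Hop2 KO libraries. Over all genes tested the groups did not overlap, in either direction, for 32.9%. Their windows held 32 and 24 CpG pairs, but those of Sco2 and Wnt4, with no peak there, held 31 and 51. The genes were not tested for a link between these readouts.

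Both peaks were small. The Ildr2 peak, chr1:166253686-166254814, covers the start and held 11 distinct fragments, and the Nt5c1a peak, chr4:123200498-123202513, held 12, against a median of 23 per peak. Ranked by these same fragments, neither was among the 8575 higher peaks. Within 1000 bases of the start, Sco2 had more fragments than either, 28, with no peak there. Cldn4 had 5, Rhox2d 6, Rhox2e 4, Wfdc18 2 and Wnt4 0, against a median of 8 over all genes and 24 over those at 5 or more in all knockout libraries. Wnt4, with the most CpG pairs of the 8 windows, thus had the fewest fragments. The nearest peak was 13221 bases away for Cldn4, 16595 for Sco2, 44258 for Wfdc18, 79007 for Wnt4 and 151831 and 188889 for Rhox2e and Rhox2d. How fragments of the near-identical Rhox2 copies were placed was not tested, so the counts and distances of Rhox2d and Rhox2e are uncertain.

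**Figure D5:**
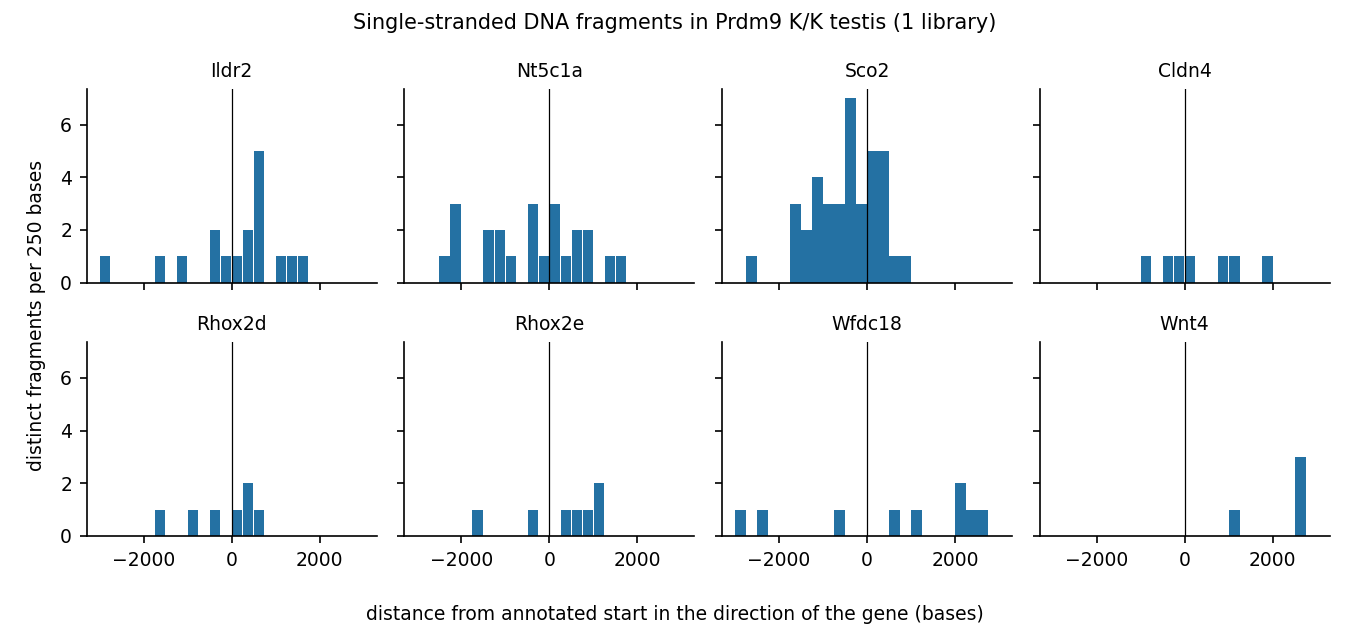
Distinct single-stranded DNA fragments per 250 bases (y axis) by distance from the annotated start in the direction of the gene (x axis, bases), 1 panel per gene, in 1 Prdm9 (K/K) library. Sco2 has the most fragments within 1000 bases at 28 and Wnt4 has 0, while those of Ildr2 peak after the start at 5 in 1 bin and those of Nt5c1a are spread over the frame with at most 3 in a bin.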

How the data were processed

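The mRNA values of 5 testis libraries are a signal of abundance, named TPM by the authors per the file headers. The submitters' processing notes list CASAVA, kallisto and sleuth for these libraries, without versions, CASAVA and MACS2 2.1.0.20150420 for the break library, and the builds GRCm38 and mm10. Column sums other than 1000000 show that the values are not plain TPM, and the factors used to rescale them are not stated in the labels or headers. Read depth is thus unknown. The p-values and q-values of the authors' deposited table were copied without change. Peaks of the deposited list were ranked by the number of distinct fragments counted in each, and no deposited score was used.

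Groups follow the genotypes in the labels. The 11 genes and the gene lists were chosen with earlier results of these data known. All 11 are named, and from each list that holds one, the 3 other genes with the largest log2 difference among those that passed. Genes whose mean over the libraries of a fit was 1 or more were tested on log2(value + 1), a scale that understates changes of weak genes. The test was limma 3.58.1 (R 4.3.3, trend on), with Benjamini-Hochberg adjustment at 0.05 over all of them. The procedure was also run on simulated data, in which libraries varied independently and wild type had the knockout spread. That simulation cannot show how the test fares where knockout libraries of the same number deviate together. Identical fragment lines were counted once, leaving 2652951 of 9397213. Tables and sequences were handled with Python 3.11.15, pandas 2.3.3 and Biopython 1.88. RefSeq windows and gene spans are on GRCm38.p6, whose chromosomes are those of mm10. Alternatives covered the pseudocount, filter, scaling, trend, replicate block, each library left out, the thresholds and the peak distance. The number of per-sample mRNA columns left unused was 0.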

Additional observations from a re-analysis of the deposited data

How the results depend on the processing

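The size of the set depends on its thresholds and on scaling. It was 41 with columns rescaled to 1000000 (all 11 kept), 6 with wild type under 0.25, 46 under 1 and 3 at 0, 36 with knockouts at 3 or more and 2 at 10 or more, and 12 to 16 with 1 knockout library left out, highest without Prdm9 KO 1. With the names kept, chosen after seeing the data, it was 13. No gene of the 11 passed between the knockouts under any of the 13 alternatives (143 values, lowest limma adjusted p = 0.338), but 12 of the 143 values changed sign. Cd83 was at -0.015 with quantile normalization and Sco2 at 0.015 with rescaled columns. The other 10 came from leaving out Prdm9 KO 1 (Cd83, Masp1, Rhox2d), Prdm9 KO 2 (Cldn4, Sco2) or Hop2 KO 2 (Wfdc18, Cd83, Masp1, Wnt4, Rhox2e). With 1 library left out, differences ran from -0.25 to 0.26 for Cd83, -0.21 to 0.37 for Masp1, -0.30 to 0.012 for Rhox2d, -0.54 to 0.17 for Cldn4, -0.33 to 0.14 for Sco2, -1.502 to 0.56 for Wfdc18, -1.20 to 0.17 for Wnt4 and -0.40 to 0.054 for Rhox2e. The cause was not tested. With no filter, 12439 genes were lower in the knockouts than in wild type, and 5809 were higher. The share of higher genes among calls was 47.3%, and 61.6% after quantile normalization or 65.2% after rescaling, which moved the median of all genes from -0.065 to 0.59 and 0.73. Of the 12 named list genes, Cldn3 and Traj22 lost their calls in 10 of 140 values, and none reversed. Break peaks met 2 of 8 starts at 250 and 2500 bases. With only the 8575 peaks ranked higher by fragments they met 0 (30.7% of all genes). They met 2 of 11 gene spans (18.2%, 39.8% of all), an alternative chosen after seeing the data.

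The knockouts share replicate numbers 1 and 2, which the labels do not tie to animals or days. Same-numbered libraries deviated together (correlation 0.413 over 14358 genes). With a replicate block 0 of the 11 genes passed and 8 of all genes did, against 2 without it, and 6415 genes were higher and 6898 lower in the knockouts than in wild type. No read depth can be given, so low wild-type values have no counting interval.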
